A study of Homo sapiens with 24 samples.

Results

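The genes of the MHC class I antigen presentation pathway were followed through 24 RNA-Seq libraries of triple-negative breast cancer (TNBC) cell lines. The 9 genes were taken by their symbols alone: HLA-B, HLA-C, HLA-E and HLA-F, B2M, TAP1, TAP2, TAPBP and NLRC5. All 9 were listed in each of the 4 deposited tables, which held 18248 to 60651 genes each and 14330 genes in common. All 9 passed the minimum of a mean of 1 in each of the 4 comparisons, HLA-F and B2M of the vector experiment only through the group in which they were higher.

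MHC class I molecules carry short peptides from proteins made inside a cell to its surface, where CD8+ T cells read them. Cytosolic proteins are cut by the proteasome, whose interferon-inducible subunits PSMB8 and PSMB9 change the cuts made. The peptides enter the endoplasmic reticulum through the transporter formed by TAP1 and TAP2, and tapasin (TAPBP) holds an empty class I molecule beside that transporter until a peptide is bound. Each molecule pairs 1 heavy chain with the light chain β2-microglobulin (B2M), without which the heavy chain does not reach the surface stably. HLA-B and HLA-C are classical heavy chains that present peptides to T cells, HLA-E is read by NKG2A receptors of natural killer cells, and HLA-F is a non-classical chain with restricted expression. NLRC5 is the transactivator of this gene group and acts at their promoters with the RFX complex. Tumor cells often lower these genes, and interferon raises them.

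The libraries came from 8 groups with 3 replicates each. Hs578T and HCC70, both unmodified established TNBC lines, were sorted into breast cancer stem cells (BCSCs), which were CD24-CD44+ and ALDH+, and non-BCSCs, which lacked both features. MDA-MB-231, a mesenchymal-like TNBC line, carried control sgRNA (sgCtrl) or KIF20A sgRNA #1 (KIF20A sg1), labelled as KIF20A knockdown, in one experiment and empty vector (EV) or KIF20A overexpression (OE) in another, with delivery by lentivirus and puromycin selection. The study's methods describe the replicates as biological, but the labels do not say that they were separate cultures, so p-values measure the spread between these samples, which may be in part technical. Each of the 4 experiments has a table and a batch label of its own, which cannot be told apart, and for Hs578T and HCC70 the line coincides with them as well.

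The sorted lines were deposited as TPM, in which a gene length and library size are divided out. In Hs578T non-BCSC replicate 1, TAP1 had 1030 reads at 3.74 TPM and NLRC5 829 reads at 10.6 TPM. Yet their GENCODE exons cover 4738 bases in TAP1 and 12386 in NLRC5. The lengths divided out are not given, and the order of different genes in TPM depends on them, so that order is given only as deposited. The values of the sgRNA experiment were reads divided by 1 factor per library, and those of the vector experiment were CPM, reads scaled to the library total; both keep gene length, so genes were compared with themselves only. Depth was 24681218 to 33715701 recovered reads in the sorted libraries, 41424338 to 51018667 in the sgRNA libraries and 15971297 to 22182293 in the vector libraries. KIF20A was 153, 173 and 156 in the sgCtrl libraries against 122, 145 and 91.1 in the KIF20A sg1 libraries. The limma difference was -0.45 ± 0.160 (SE) on the log2 scale with an adjusted p of 0.689. These are RNA values, while the study reports depletion of KIF20A by its sgRNAs in MDA-MB-231 with an immunoblot of the protein. KIF20A RNA was 101, 143 and 124 CPM in EV against 1348, 269 and 896 CPM in the libraries with the OE label. In the latter the markers of a mesenchymal breast line summed to 391 to 829 CPM against 8293 to 8736 in EV, with CD44 at 2, 7 and 23 reads against 8895 to 16556. Markers of an embryonic kidney line (IRS4, PAX2, LHX1 and others) summed to 1967 to 2506 CPM there against 72.6 to 80.6 in EV, and 10 of 10 were above 1 CPM against 1 of 10. By their markers these libraries go against their label of MDA-MB-231, and they are called the OE-labelled libraries throughout.

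On GRCh38 (GENCODE 44), 7 of the 9 genes lie on chromosome 6. HLA-F (29722775 to 29738528, plus strand), HLA-E (30489509 to 30494194, plus), HLA-C (31268749 to 31272130, minus) and HLA-B (31353872 to 31367067, minus) were followed by TAP2 (32821833 to 32838739, minus), TAP1 (32845209 to 32853816, minus) and TAPBP (33299694 to 33314284, minus). B2M lies on chromosome 15 (44711358 to 44718851, plus) and NLRC5 on chromosome 16 (56989485 to 57083531, plus). HLA heavy chains are highly polymorphic and near-identical to each other in places, so reads may be split between them by the counting, and differently in lines that carry different alleles. Exons of other genes overlapped those of HLA-B by 32.7% and of TAP2 by 19.5% on the same strand, and those of HLA-F by 28.0%, TAPBP by 21.0%, HLA-B by 14.8% and TAP1 by 14.2% on the opposite strand. Exons of HLA-C, HLA-E, B2M and NLRC5 had no such overlap.

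The promoters show the elements that the group shares. RefSeq sequences (GRCh38.p14) were given for 7 of the 9 genes, and 4 are printed as the 250 bases before the transcription start, 5′ to 3′ on the gene's strand. HLA-B and B2M are shown because they held all of the motifs searched, TAPBP because its level differed most between EV and the OE-labelled libraries among the genes that were lower, and HLA-F because it moved the other way. Capitals mark matches on either strand to an interferon-response core (AANNGAAA), a kappaB element (GGG, any 2 bases, TT, any base, CC), the core of a cyclic AMP response element (CRE, TGACG) or CCAAT.
HLA-B (chr6:31357180-31357429, minus strand): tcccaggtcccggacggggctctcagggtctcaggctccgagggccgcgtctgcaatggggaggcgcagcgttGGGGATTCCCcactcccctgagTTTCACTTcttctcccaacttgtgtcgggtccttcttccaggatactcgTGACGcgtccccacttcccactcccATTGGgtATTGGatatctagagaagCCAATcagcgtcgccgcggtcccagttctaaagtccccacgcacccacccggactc
HLA-F (chr6:29723184-29723433, plus strand): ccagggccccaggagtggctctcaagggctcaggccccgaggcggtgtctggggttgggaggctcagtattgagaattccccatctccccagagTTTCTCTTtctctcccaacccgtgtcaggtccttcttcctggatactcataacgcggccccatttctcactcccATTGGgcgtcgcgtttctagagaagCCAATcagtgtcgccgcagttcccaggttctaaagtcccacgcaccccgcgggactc
B2M (chr15:44711267-44711516, plus strand): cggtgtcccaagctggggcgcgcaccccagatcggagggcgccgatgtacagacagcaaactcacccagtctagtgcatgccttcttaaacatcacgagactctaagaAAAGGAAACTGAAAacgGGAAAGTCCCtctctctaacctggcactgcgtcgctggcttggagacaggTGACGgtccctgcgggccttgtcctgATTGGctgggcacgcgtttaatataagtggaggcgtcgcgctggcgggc
TAPBP (chr6:33314079-33314328, minus strand): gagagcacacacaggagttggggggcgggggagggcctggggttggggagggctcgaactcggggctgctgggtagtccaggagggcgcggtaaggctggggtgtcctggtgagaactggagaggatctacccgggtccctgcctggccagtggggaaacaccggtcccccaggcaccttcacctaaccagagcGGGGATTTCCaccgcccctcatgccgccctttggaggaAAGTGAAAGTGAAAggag
The motif letters were written down after the sequences had been seen. The window of 250 bases before to 50 after the start held the interferon-response core in 7 of 7 member promoters and in 23.2% of all 27305 promoters. Matches to kappaB lay in HLA-B, B2M, TAP1 and TAPBP (5.67% of all promoters), to the CRE core in HLA-B, HLA-C, B2M and TAP2 (25%), and to CCAAT in HLA-B, HLA-C, HLA-F, B2M and TAP1 (35.7%). The cores overlapped each other in B2M, TAP1, TAP2 and TAPBP, where 2 matches began 6 bases apart. All 4 motifs were found together in 0.0842% of all promoters, HLA-B and B2M among them. HLA-B, HLA-C and HLA-F carried their core 151 to 156 bases before the start, with a forward CCAAT 56 or 57 bases before it, while the pair of cores in TAPBP began 18 and 12 bases before the start. A match is a description of letters and not of a bound factor.

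**Figure D1:**
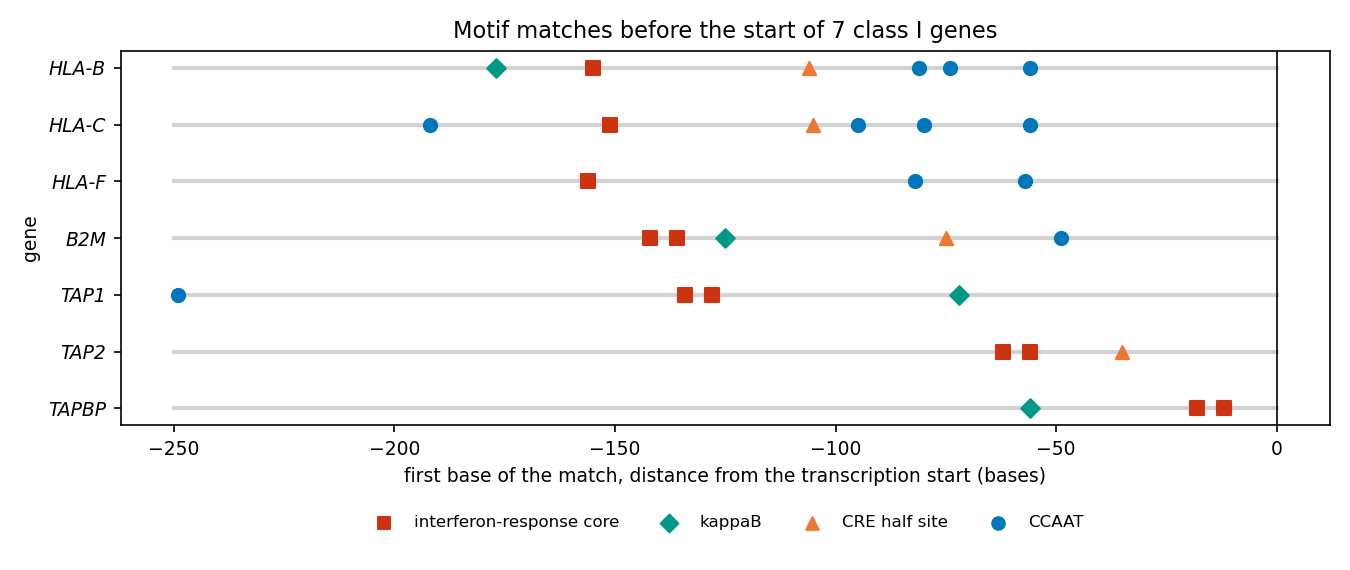
Position of each motif match (first base, in bases from the transcription start at 0) in the 250 bases before the start of the 7 class I genes with a RefSeq promoter, with 1 row per gene and 1 symbol per motif. The interferon-response core is present in all 7 rows, and in HLA-B, HLA-C and HLA-F it lies 151 to 156 bases before the start.

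By deposited TPM, the light chain was far above the other class I genes in the sorted lines. The 2 lines differed in level more than their sorted fractions did. In reads of Hs578T non-BCSC replicate 1, B2M had 26481 and HLA-B 8803, a smaller gap than in TPM. B2M was at 2183 ± 154 TPM (SD, n = 3) in Hs578T non-BCSCs and 5629 ± 346 TPM in HCC70 non-BCSCs, above 99.8% of the genes detected in either line. Below it came HLA-B (82.5 ± 2.12 and 400 ± 22.1 TPM), HLA-C (33.2 ± 0.892 and 91.9 ± 4.46 TPM), TAPBP (26.8 ± 0.177 and 58.1 ± 2.19 TPM) and HLA-E (11.7 ± 0.177 and 34.5 ± 0.833 TPM). The libraries of each of these neighbours did not overlap with the next in the order, in either fraction or line.

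Toward the lower end, NLRC5 was at 11.3 ± 0.738 TPM in non-BCSCs of Hs578T and 17.4 ± 1.18 TPM in HCC70 non-BCSCs. It could not be separated from HLA-E in either fraction of Hs578T but was below it in both fractions of HCC70. TAP1, TAP2 and HLA-F were lowest in TPM, at 3.64 to 3.77 TPM in Hs578T non-BCSCs with overlapping libraries. They were at 9.15 to 12.0 TPM in HCC70 non-BCSCs, where HLA-F was below both transporter subunits. In reads, TAP1 was above NLRC5 in each sorted library, so their order in TPM rests on the lengths divided out.

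All 9 genes had a higher mean in HCC70 than in Hs578T non-BCSCs, from 1.54 times for NLRC5 to 4.84 times for HLA-B, with TAP2 at 3.31, TAP1 at 3.19, HLA-E at 2.94, HLA-C at 2.77, B2M at 2.58, HLA-F at 2.43 and TAPBP at 2.17 times. The 2 tables were scaled separately, so these ratios are given without a test.

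**Figure D2:**
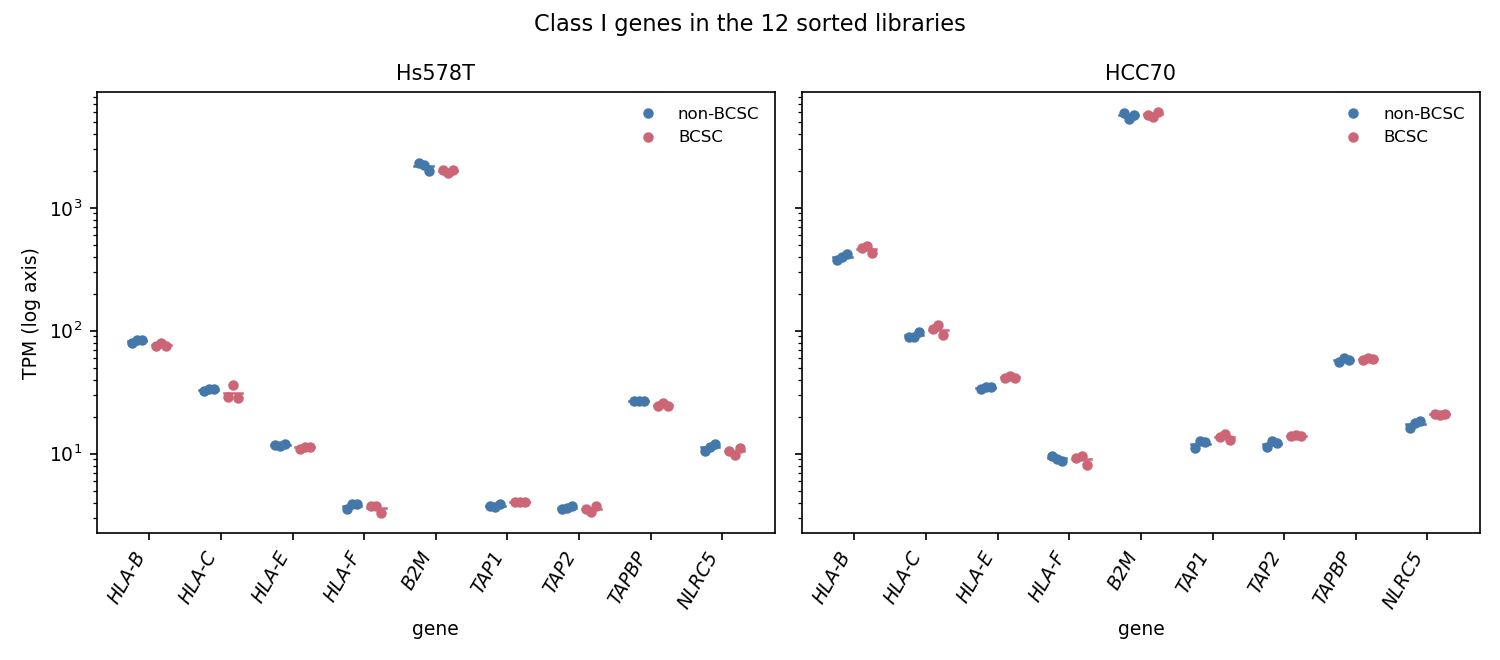
TPM of the 9 class I genes in each sorted library (points; log axis) with the group mean (bar), for non-BCSCs and BCSCs of Hs578T and HCC70. B2M lies at 1934 to 6002 TPM and all other genes at or below 493 TPM, and BCSC and non-BCSC points lie close together for each gene.

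The comparison of BCSCs with non-BCSCs asked which genes differ with stem-like sorting. In Hs578T no class I gene passed the test, and all fold changes were small, between -0.13 and 0.08 on the log2 scale. limma called 0 of 9 at an adjusted p under 0.05, against 7.15% of the 13324 genes tested, with 1 of 9 at an unadjusted p under 0.05 (22.5% of all genes) and 0 by edgeR or DESeq2 on recovered reads. The median log2 fold change of the 9 was -0.10 and that of all genes -0.01. In bulk RNA, fewer cells with a transcript and less of it in each cell cannot be told apart.

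Among the heavy chains of Hs578T, HLA-B was at 80.1, 83.5 and 83.9 TPM in non-BCSCs and at 74.8, 80.0 and 75.4 TPM in BCSCs. The BCSC libraries were all below the non-BCSC ones, with means of 76.7 ± 2.86 and 82.5 ± 2.12 TPM, a log2 fold change of -0.10 ± 0.046 (SE) and an adjusted p of 0.234. HLA-E was also lower in each BCSC library (11.0 to 11.4 TPM against 11.6 to 11.9), while HLA-C and HLA-F overlapped between fractions. B2M was at 2301, 2239 and 2009 TPM in non-BCSCs and 2016, 1934 and 2039 TPM in BCSCs, which overlapped (log2 fold change -0.13 ± 0.061, adjusted p 0.270).

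The transporter subunits of Hs578T had fold changes of opposite sign, and neither passed the test. TAP1 was at 3.74, 3.66 and 3.90 TPM in non-BCSCs and 4.08, 4.02 and 4.04 TPM in BCSCs, the one gene of the 9 with a positive fold change (0.08 ± 0.066, adjusted p 0.511). TAP2 overlapped between fractions at 3.35 to 3.76 TPM. TAPBP, at 26.8, 26.6 and 26.9 TPM in non-BCSCs and 24.3, 25.8 and 24.2 TPM in BCSCs, did not overlap and had the smallest adjusted p of the 9 (0.220, log2 fold change -0.11 ± 0.046). NLRC5 overlapped at 9.83 to 12.1 TPM. In all, 4 of 9 genes had groups that did not overlap, against 29% of all genes tested.

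In HCC70 the class I genes were mostly higher in BCSCs, by up to 20.8% in the mean, and 1 of 9, HLA-E, passed the test. The background was 2.83% of 13218 genes called and 2.28% called higher. At an unadjusted p under 0.05, 5 of 9 were higher, against 16% of all genes, and the same 5 had groups that did not overlap, against 20.9% higher and not overlapping among all genes. The median log2 fold change of the 9 was 0.18 and that of all genes 0.02.

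HLA-E, the ligand of NKG2A, was at 33.6, 34.8 and 35.1 TPM in HCC70 non-BCSCs and at 41.2, 42.8 and 41.0 TPM in BCSCs. Each BCSC library was above every non-BCSC library, with a log2 fold change of 0.27 ± 0.052 (SE) and an adjusted p of 0.0448. This call is at the edge of the threshold: the adjusted p rose to 0.0551 to 0.0882 with no minimum, another scaling or a replicate block, and to 0.0732 to 0.182 when any of the 6 libraries was left out, with fold changes of 0.24 to 0.28. HLA-B was at 379, 397 and 423 TPM in non-BCSCs and 468, 493 and 430 TPM in BCSCs (0.21 ± 0.071, adjusted p 0.130). HLA-C overlapped (89.0 to 97.0 against 91.7 to 110 TPM), as did HLA-F (8.76 to 9.63 against 8.06 to 9.57 TPM).

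The light chain of HCC70 was at 5941, 5257 and 5688 TPM in non-BCSCs and 5732, 5505 and 6002 TPM in BCSCs, with a log2 fold change of 0.03 ± 0.090 whose 95% interval ran from -0.18 to 0.24. Both transporter subunits were higher in each BCSC library. TAP1 was at 11.1, 12.7 and 12.4 against 13.7, 14.6 and 13.0 TPM (0.18 ± 0.076, adjusted p 0.203), and TAP2 at 11.3, 12.7 and 12.1 against 13.8, 14.1 and 14.0 TPM (0.20 ± 0.065, adjusted p 0.124). TAPBP overlapped at 55.9 to 60.3 TPM. NLRC5, the transactivator, was at 16.1, 17.9 and 18.3 TPM in non-BCSCs and 20.9, 20.6 and 21.1 TPM in BCSCs, a rise of 19.8% in the mean that did not pass the test (0.25 ± 0.066, adjusted p 0.0811), although DESeq2 on recovered reads called it (adjusted p 0.0435).

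Whether the difference between fractions itself differed between the lines was tested by an interaction term over the 12 sorted libraries. All 9 terms, HCC70 minus Hs578T, were positive, with a median of 0.23 against 0.04 for all genes, and 3 of 9 passed, against 7.11% of the 11666 genes tested and 5.62% that passed as higher. HLA-E differed by 0.32 ± 0.062 (SE; adjusted p 0.0131), HLA-B by 0.32 ± 0.083 (adjusted p 0.0426) and NLRC5 by 0.35 ± 0.094 (adjusted p 0.0456). The other 6 did not pass (adjusted p at least 0.120), of which HLA-F had the smallest difference, 0.02 with an interval from -0.23 to 0.27. Only HLA-E passed without each of the libraries left out in turn, and 0 of 9 passed with a replicate block. Line and batch cannot be told apart here.

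**Figure D3:**
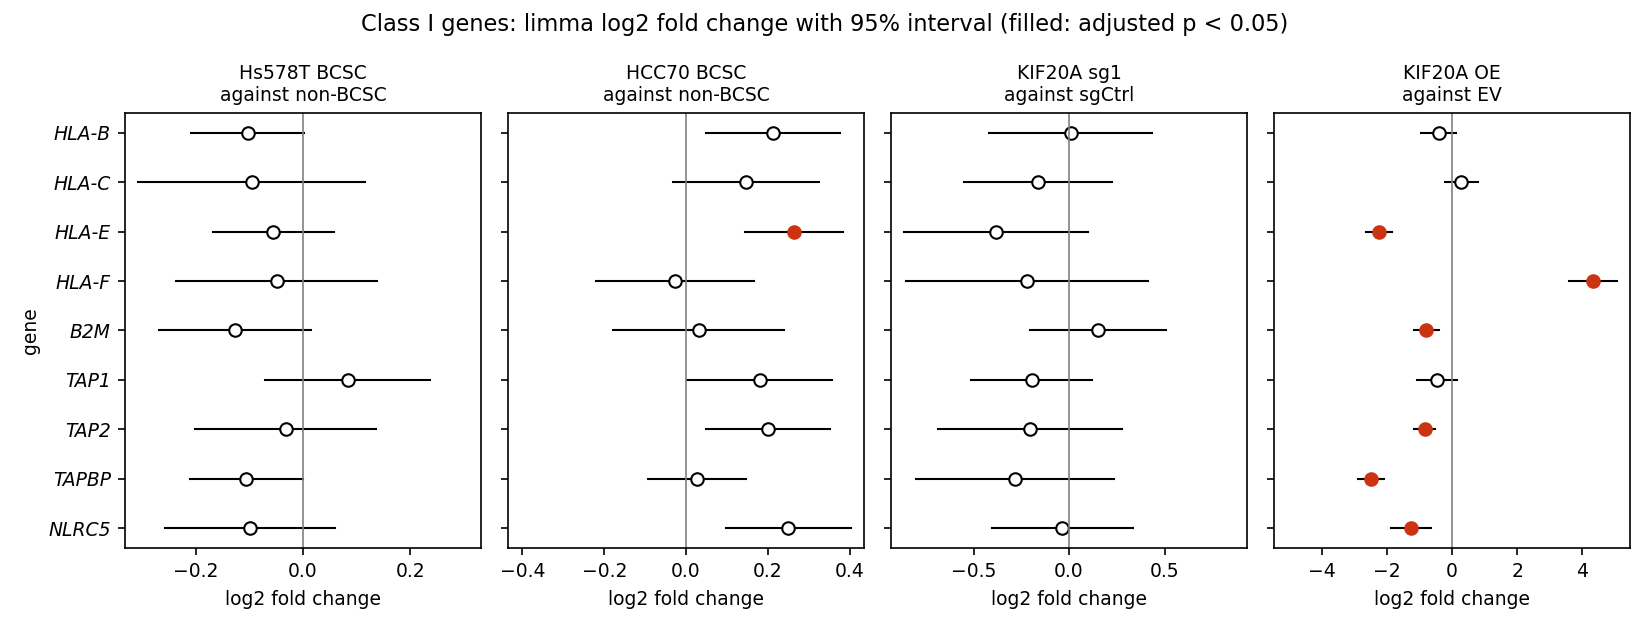
log2 fold change (limma; point) with its 95% interval (line) of each class I gene in the 4 comparisons, on a separate horizontal scale in each panel; filled points have an adjusted p under 0.05. One point is filled in HCC70 and 6 in the vector experiment, and the points of Hs578T and HCC70 lie on opposite sides of 0 for 7 genes.

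Of the lists around the 9 genes, the interferon-stimulated and immunoproteasome ones, which share PSMB8 and PSMB9, held lower genes in Hs578T. In this line, 10 of 33 interferon-stimulated genes tested were lower in BCSCs and 0 higher, with a median of -0.17, while 4.26% of all genes tested were lower; the count was 5 to 11 when single libraries were left out, lowest without non-BCSC replicate 1, and 6 to 14 under the other settings. BST2 (tetherin), which retains virions at the cell surface, fell from 19.3 ± 1.78 to 11.7 ± 0.373 TPM (log2 fold change -0.68 ± 0.071, adjusted p 0.00215), GBP1, a guanylate-binding protein, from 31.9 ± 1.64 to 22.6 ± 0.0539 TPM (-0.48 ± 0.050, adjusted p 0.00209) and IFI44 from 16.5 ± 2.20 to 10.3 ± 1.22 TPM (-0.63 ± 0.107, adjusted p 0.0148). Of 6 immunoproteasome genes, 2 were lower: PSMB9 (4.57 ± 0.118 to 3.28 ± 0.0846 TPM, adjusted p 0.0167) and PSMB10 (73.2 ± 2.08 to 58.5 ± 1.44 TPM, adjusted p 0.00636), with 1 to 4 lower across the alternatives. PSMB8 was at 9.40 ± 0.385 and 8.38 ± 0.629 TPM (adjusted p 0.244).

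IRF1, a factor that binds interferon-response elements, was at 31.5, 31.9 and 32.5 TPM in non-BCSCs of Hs578T and 28.4, 25.7 and 27.7 TPM in BCSCs (-0.22 ± 0.050, adjusted p 0.0382), a call kept in 6 of 14 alternatives. In HCC70 it was at 32.6, 31.9 and 34.9 TPM in non-BCSCs and 40.4, 39.3 and 39.9 TPM in BCSCs (0.26 ± 0.055, adjusted p 0.0532). The difference between the lines passed for IRF1 (0.48 ± 0.070, adjusted p 0.00299) and for PSMB9 (0.52 ± 0.084, adjusted p 0.00571), and in every alternative tried for both. It did not pass for RFX5 (0.16, adjusted p 0.168), a subunit of the RFX complex, or for PSMB8 (0.33, adjusted p 0.0848).

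In HCC70, 1 of 22 class I transcription factors (STAT2, 55.0 ± 1.34 to 66.3 ± 1.37 TPM, adjusted p 0.0408), 1 of 10 interferon receptor and signalling genes (SOCS3, 14.8 ± 0.971 to 21.1 ± 0.827 TPM, adjusted p 0.0157) and 1 of 37 interferon-stimulated genes (OAS3, 54.0 ± 2.89 to 66.9 ± 2.14 TPM, adjusted p 0.0426) were higher. Among all genes tested in HCC70, 2.28% were called higher, and a single call does not describe its list. STAT2 was called in 5 of 14 alternatives and OAS3 in 4, neither of them under another scaling or with any library left out. SOCS3 was called in 10. limma called 0 of 6 immunoproteasome, 0 of 12 peptide loading and trimming, 0 of 10 other class I chain and 0 of 6 class II genes there. At an unadjusted p under 0.05 in either direction there were 1, 2, 6 and 3. Of all genes, 16% were higher at that p. Genes lower at that p add to this share, so the counts cannot be set against it. edgeR and DESeq2 called 0 in the first 3 of these lists and 2 class II genes each, both higher. In Hs578T, ERAP2, a trimming peptidase of the endoplasmic reticulum, was the 1 gene of 12 in its list that passed (206 ± 12.3 to 175 ± 3.62 TPM, adjusted p 0.0421, called in 7 of 14 alternatives), and of 8 other class I chains and ligands ULBP2 (21.9 ± 1.16 to 17.1 ± 0.353 TPM, adjusted p 0.00989) and MR1 passed. The chaperones CALR, CANX and PDIA3 and the peptidase ERAP1 did not pass in either line (adjusted p 0.221 to 0.881). Class II genes were below the minimum in Hs578T, where CIITA, the class II transactivator, had 1 to 5 reads a library.

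As for markers of other cells in the sorted lines, leukocyte markers, which would bring their own class I transcripts, summed to 6.52 to 8.97 TPM in Hs578T and 85.4 to 120 TPM in HCC70, with 2 of 10 above 1 TPM in 3 of these 4 groups and 1 of 10 in the other. Fibroblast markers (COL1A1, COL3A1 and others) summed to 2414 to 2450 TPM in non-BCSCs of Hs578T and 1211 to 1278 TPM in BCSCs. Of these, 7 of 8 passed as lower, and 8 of 8 were above 1 TPM in both fractions. Markers of a mesenchymal breast line summed to 13597 to 14032 TPM in the non-BCSCs and 12516.5 to 13239 TPM in the BCSCs. Fibroblast marker transcripts of the line itself and of other cells cannot be told apart here. In HCC70 the fibroblast markers were at 9.30 to 10.6 TPM. The part of the fibroblast markers in the lower interferon-stimulated genes of Hs578T was not tested.

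The sgRNA experiment asked what changes when KIF20A, a mitotic kinesin, is depleted. No class I gene passed, and the groups overlapped for all 9, while 13% of all genes had groups that did not. limma called 0 of 9 and 0% of the 12852 genes tested, with 0 of 9 at an unadjusted p under 0.05 (7% of all genes) and 0 of 9 by edgeR or DESeq2. Levels here are reads divided by 1 factor per library.

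HLA-B was at 560, 741 and 449 in the sgCtrl libraries and 685, 580 and 476 with KIF20A sg1, a log2 fold change of 0.01 with an interval from -0.42 to 0.44. B2M was at 522, 677 and 725 against 765, 753 and 613 (0.15 ± 0.162, adjusted p 0.833). HLA-E was at 164, 188 and 94.0 against 123, 109 and 97.5 (-0.38 ± 0.218, adjusted p 0.708). The sgCtrl libraries themselves spanned more than the groups differed, and sgCtrl replicate 3 was the lowest of its group for 8 of the 9 genes.

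The remaining members had the same form. TAPBP was at 205, 217 and 105 in sgCtrl and 150, 148 and 117 with KIF20A sg1 (-0.28 ± 0.236), and HLA-F at 6.85, 8.85 and 2.99 against 5.50, 4.92 and 4.05 (-0.22 ± 0.289). HLA-C, TAP1, TAP2 and NLRC5 differed by -0.16, -0.20, -0.20 and -0.04 (adjusted p 0.762 to 0.968). The members of sgCtrl replicate 3 averaged 0.39 below their group means on the log2 scale, while those of replicates 1 and 2 averaged 0.13 and 0.25 above. Without sgCtrl replicate 3, HLA-E passed as lower (log2 fold change -0.68, adjusted p 0.0427), among 144 genes called, 137 lower and 7 higher, against 0 with every library. With 3 libraries a group the intervals of the 9 genes reached from -0.86 to 0.51, so changes within those bounds were not resolved.

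Around the 9, PSMB8 was at 54.2, 58.6 and 41.6 in sgCtrl and 49.5, 37.5 and 37.1 with KIF20A sg1 (-0.31 ± 0.164, adjusted p 0.700) and PSMB9 at 32.4, 31.3 and 23.6 against 32.2, 19.6 and 20.3 (-0.29, adjusted p 0.757). IRF1 (37.2 ± 4.92 and 35.8 ± 2.12), RFX5 (71.1 ± 7.48 and 77.2 ± 8.77) and CIITA (45.2 ± 19.7 and 53.3 ± 4.35) also did not pass (adjusted p 0.771 to 0.945), and neither did CALR, CANX, PDIA3, ERAP1 or ERAP2 (adjusted p 0.731 to 0.988). Of 33 interferon-stimulated genes, limma called 0, with 5 at an unadjusted p under 0.05, and edgeR and DESeq2 called 0.

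In the vector experiment 5 of 9 class I genes were lower and 1 was higher in the OE-labelled libraries than in EV, and the groups of these 6 did not overlap. These counts include HLA-F and B2M, which passed the minimum only through their higher group, and 6 of 9 is no larger a share than that of all genes. Of 15265 genes tested, 69.7% were called, 46.2% higher and 23.4% lower, and groups did not overlap for 74.1%. The markers given above also differed, so these differences compare libraries whose cell line markers differ; the part of cell identity and that of KIF20A cannot be told apart. The median log2 fold change was -0.79 for the 9 genes and 0.37 for all genes. Rescaling by the median of ratios took the latter to 0.04 and the calls among all genes from 7055 higher and 3579 lower to 5218 and 4968.

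Among the heavy chains, HLA-E was at 686, 437 and 505 CPM in EV against 108, 102 and 127 CPM in OE-labelled libraries, and the mean dropped by 79.3% (log2 fold change -2.24 ± 0.177, adjusted p 1.2e-05). HLA-F ran the other way, with 0, 0.0967 and 1.29 CPM in EV, or 0, 2 and 22 reads, and 27.5, 23.5 and 27.8 CPM in the OE-labelled libraries, or 440, 521 and 520 reads. Its log2 fold change was 4.32 ± 0.320 (adjusted p 8.3e-06), and the ratio of means, 56.7, rests on EV replicate 3 for nearly all of the EV reads. HLA-B was at 382, 217 and 385 against 262, 199 and 263 CPM, with overlapping groups (-0.41 ± 0.233, adjusted p 0.151); it passed as lower under the median of ratios, edgeR, DESeq2, a replicate block and without EV replicate 2, which held the lowest EV value (-0.68). HLA-C was at 453, 250 and 349 against 412, 351 and 497 CPM (0.29 ± 0.223, adjusted p 0.277), and its sign turned under the median of ratios (-0.08), edgeR and DESeq2.

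B2M was near the floor of this table in both groups. It had 32, 36 and 29 reads in EV (1.52, 1.74 and 1.71 CPM) and 7, 13 and 11 reads in the OE-labelled libraries (0.438, 0.586 and 0.589 CPM). The groups did not overlap and B2M passed as lower (-0.79 ± 0.167 on the log2(CPM + 1) scale, adjusted p 0.00302); the ratio of means was 0.325, so the log2 value understates the difference. In sgCtrl, the control of the same line in the other experiment, B2M was at 522 to 725, 387 times the EV mean. The cause of the low B2M in this table was not tested.

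Of the transport and loading members, TAPBP and TAP2 were lower and TAP1 did not pass. TAPBP was at 382, 254 and 298 CPM in EV against 52.3, 47.2 and 61.8 CPM in OE-labelled libraries, so that the mean dropped by 82.7%, with the lowest log2 fold change of the 9 (-2.50 ± 0.173, adjusted p 5.58e-06). TAP2 was at 48.1, 52.1 and 55.0 against 26.2, 26.6 and 32.8 CPM (-0.84 ± 0.142, adjusted p 0.000885). TAP1 overlapped, at 55.8, 28.3 and 46.8 against 31.9, 23.2 and 36.6 CPM (-0.47 ± 0.268, adjusted p 0.148), and passed as lower under rescaling, edgeR, DESeq2, a replicate block and without EV replicate 2 (-0.75, adjusted p 0.0192). NLRC5 was at 18.2, 18.3 and 24.8 CPM in EV against 10.6, 5.09 and 8.83 CPM in OE-labelled libraries (-1.26 ± 0.268, adjusted p 0.00311).

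**Figure D4:**
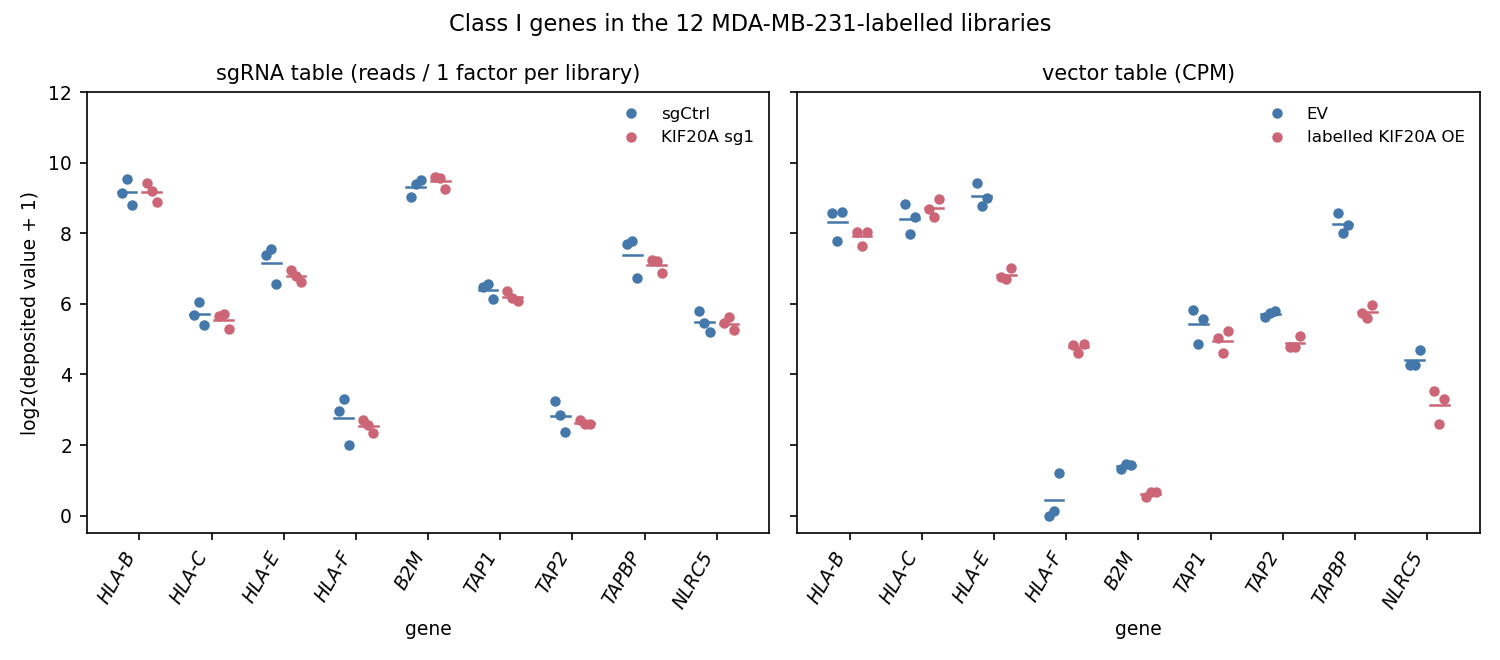
log2(deposited value + 1) of the 9 class I genes in each library labelled MDA-MB-231 (points) with the group mean (bar). The left panel has reads divided by 1 factor per library, for sgCtrl and KIF20A sg1, which overlap for every gene; the right panel has CPM for EV and the OE-labelled libraries, where HLA-E and TAPBP are lower and HLA-F is higher in the latter, and B2M is near 0 in both.

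The lists around the 9 genes are given against the shares of all genes in the vector experiment. There, 69.7% were called, 46.2% higher and 23.4% lower, and the cell line markers of the groups differed. A count near these shares does not describe its list, here and in the list paragraphs that follow. The counts of these lists include genes with a mean under 1 CPM in 1 group, which passed the minimum only through the other group. Of 6 immunoproteasome genes, 5 were lower and 1, the assembly factor POMP, was higher (77.5 ± 4.48 to 115 ± 10.0 CPM, adjusted p 0.00252; not called under the median of ratios, edgeR or DESeq2), with a median of -1.52. PSMB8 had 991, 777 and 782 reads in EV and 1, 0 and 2 reads in the OE-labelled libraries (47.2, 37.6 and 46.0 against 0.0626, 0 and 0.107 CPM; adjusted p 1.58e-07). PSMB9 was at 10.9, 12.8 and 9.70 against 1.63, 1.17 and 1.71 CPM (-2.28 ± 0.198, adjusted p 2.08e-05), and the activator PSME1 at 145 ± 25.8 against 73.3 ± 8.44 CPM (-0.97 ± 0.157, adjusted p 0.000708). Of 5 genes of the standard proteasome, 2 were higher, PSMA4 (107 ± 11.7 to 293 ± 15.1 CPM) and PSMB5 (122 ± 6.77 to 178 ± 7.67 CPM, not called under the median of ratios, edgeR or DESeq2), and 0 were lower, though rescaling gave up to 2 lower.

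Of 12 peptide loading and trimming genes, 6 were lower and 2 higher, and under rescaling 7 to 10 were lower and 1 to 2 higher. ERAP1, which trims peptides in the endoplasmic reticulum, was at 46.3 ± 4.68 CPM in EV against 8.26 ± 1.93 CPM in OE-labelled libraries (-2.37 ± 0.199, adjusted p 1.7e-05). The chaperones HSPA5 (851 ± 141 to 442 ± 58.7 CPM, adjusted p 0.000848) and CALR (958 ± 101 to 528 ± 44.8 CPM, adjusted p 0.000399) were lower, and the cytosolic peptidase THOP1 (73.0 ± 18.0 to 189 ± 6.62 CPM, adjusted p 0.000135) and SAR1B, a GTPase of transport vesicles (53.1 ± 6.26 to 76.1 ± 7.38 CPM, adjusted p 0.01; not called under the median of ratios, edgeR or DESeq2), were higher. CANX (adjusted p 0.0577), PDIA3 (0.917) and ERAP2 (0.123) did not pass.

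Of 22 transcription factors of class I genes, 8 were lower and 3 higher, and the 3 higher were the subunits of the RFX complex. Under rescaling (median of ratios or quantile normalization) 9 to 14 were lower and 2 to 3 higher, and 5 to 8 were lower with single libraries left out, 5 without OE-labelled replicate 2 or 3. RFXAP was at 4.43, 4.06 and 5.06 CPM in EV against 34.2, 36.8 and 31.4 CPM in OE-labelled libraries (2.67 ± 0.167, adjusted p 3.24e-06), RFX5 at 48.3, 58.5 and 59.7 against 124, 130 and 116 CPM (1.15 ± 0.125, adjusted p 7.56e-05), and RFXANK had a log2 fold change of 0.66 ± 0.139 (adjusted p 0.00287; not called under the median of ratios, edgeR or DESeq2). IRF1 was at 27.1, 35.7 and 37.2 against 14.1, 11.3 and 11.7 CPM (-1.36 ± 0.180, adjusted p 0.000228) and IRF2 at 26.6 ± 2.85 against 9.03 ± 1.92 CPM (-1.47 ± 0.195, adjusted p 0.000228). NLRC5, which acts with the RFX complex, was lower in these libraries.

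Interferon-stimulated genes were lower for 31 of 35 tested and higher for 1, with a median of -2.28. Across the alternatives 21 to 32 were lower. PSMB8 and PSMB9 are also on this list. Of the lower genes, PSMB8, OAS1, OAS2, OAS3, OASL, IFI44, GBP1, GBP2, XAF1, SAMD9L, TRIM22 and IRF9 passed the minimum only through EV. The higher one was USP18, a negative regulator of interferon signalling (0.507 ± 0.447 to 18.3 ± 1.95 CPM), which passed the minimum only through the OE-labelled libraries. OAS3 was at 50.4 ± 17.5 against 0.524 ± 0.801 CPM (-5.15 ± 0.378, adjusted p 8e-06) and BST2 at 169 ± 32.8 against 5.03 ± 2.00 CPM (-4.86 ± 0.275, adjusted p 1.93e-06). Of 9 interferon receptor and signalling genes, 5 were lower and IFNGR1 was higher (39.9 ± 8.82 to 61.0 ± 7.49 CPM); IFNGR1 was not called under rescaling, edgeR or DESeq2 or without OE-labelled replicate 2, and rescaling gave 4 to 7 lower. The lower ones included SOCS3 (61.0 ± 7.60 to 5.55 ± 1.84 CPM), PTPN2 (56.0 ± 5.80 to 30.7 ± 0.498 CPM) and JAK2 (16.5 ± 1.61 to 9.40 ± 0.932 CPM).

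Among 11 other class I chains and ligands, 7 were lower and 3, the NKG2D ligands ULBP1, ULBP2 and ULBP3, were higher, of which ULBP2 was not called under rescaling, edgeR or DESeq2 or without OE-labelled replicate 1. HFE, the class I-like regulator of iron uptake, was at 25.1 ± 5.69 CPM in EV against 0.263 ± 0.168 CPM in OE-labelled libraries (-4.35 ± 0.224, adjusted p 1.14e-06), and MICB, a ligand of NKG2D, at 71.8 ± 1.62 against 12.7 ± 0.972 CPM (-2.42 ± 0.131, adjusted p 1.48e-06). Inhibitory ligands were lower for 4 of 6 and higher for CD276 (65.7 ± 6.19 to 140 ± 27.2 CPM), with CD274 (PD-L1) at 27.3 ± 3.92 against 0.940 ± 0.437 CPM, CD47 at 155 ± 29.1 against 46.4 ± 6.84 CPM and NECTIN2 at 177 ± 5.20 against 68.3 ± 2.08 CPM. Among the called genes of these lists, HFE, RAET1E, CD274 and PDCD1LG2 passed the minimum only through EV, and ULBP1 only through the OE-labelled libraries. Class II genes were mixed, 6 of 11 higher and 3 lower. Of these, HLA-DQB1, HLA-DOA, HLA-DPB1 and HLA-DMB passed the minimum only through the OE-labelled libraries, and HLA-DRA only through EV. HLA-DQB1 and HLA-DOA were listed at 0 in each EV library and at 17.6 to 27.6 and 15.2 to 28.7 CPM in the OE-labelled libraries. HLA-DPA1 rose from 1.00, 0.193 and 2.18 to 73.3, 30.1 and 76.4 CPM (4.84 ± 0.446, adjusted p 2.88e-05). In sgCtrl, the same line by its label, HLA-DPA1 was at 92.7, 92.6 and 72.3, so its EV level was low for that line. HLA-DQB1 had 0, 0 and 2 reads in sgCtrl. The cause of the low HLA-DPA1 in EV was not tested. CIITA did not pass (18.5 ± 2.30 and 14.4 ± 2.90 CPM, adjusted p 0.135). Leukocyte markers, which class II genes accompany in blood cells, summed to 5.32 to 9.94 CPM in EV and 47.2 to 53.2 CPM in the OE-labelled libraries, with 2 of 10 above 1 CPM in both; their part was not tested.

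**Figure D5:**
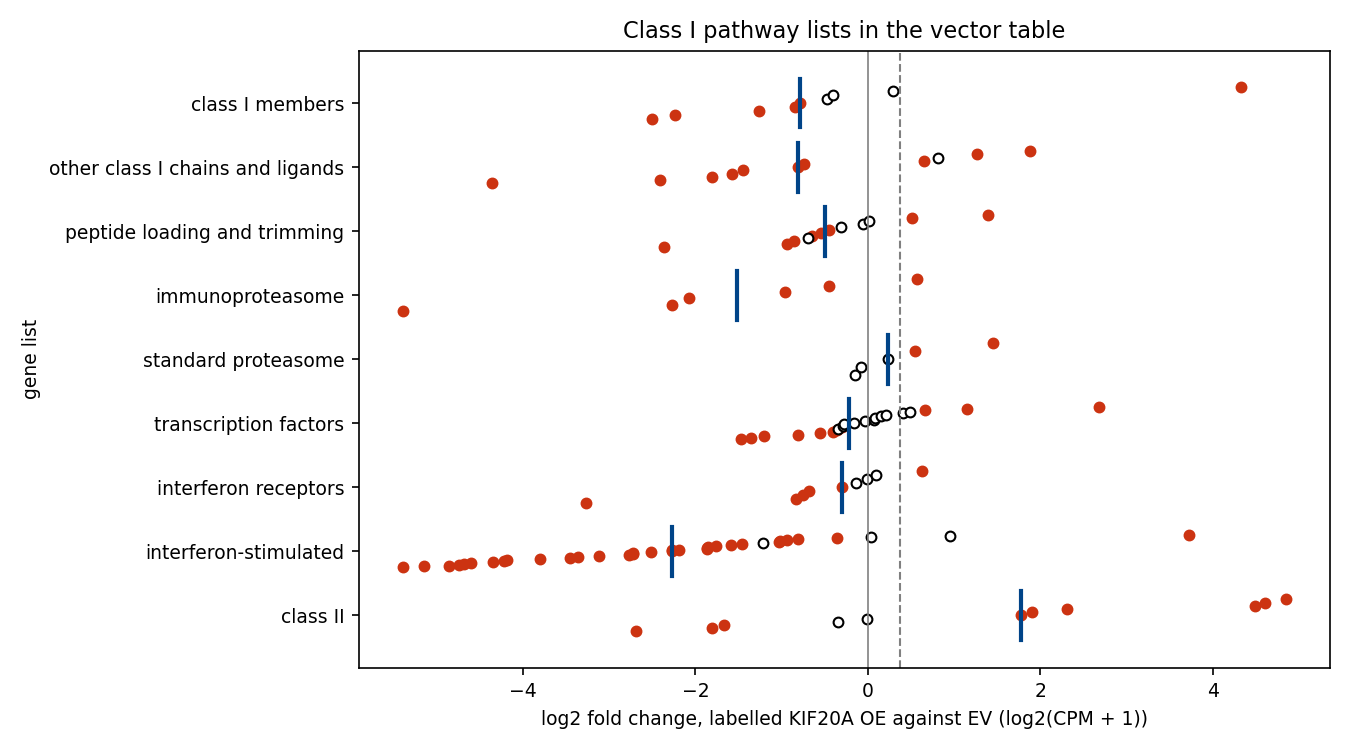
log2 fold change (log2(CPM + 1), OE-labelled libraries against EV) of each tested gene (points) in the class I genes and 8 lists around them. Filled points have an adjusted p under 0.05, the bar is the list's median, and the dashed line is the median of all genes, 0.37; interferon-stimulated and immunoproteasome genes lie furthest to the left.

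The controls of the MDA-MB-231 experiments carried the same line by their labels but different class I levels. Relative to sgCtrl, the EV mean was 8.14 times for TAP2 (6.36 ± 2.18 against 51.8 ± 3.49), 6.71 times for HLA-C (52.3 ± 11.8 against 351 ± 102) and 3.64 times for HLA-E (149 ± 49.0 against 543 ± 129). It was 0.0744 times for HLA-F (6.23 ± 2.98 against 0.463 ± 0.720) and 0.00258 times for B2M (642 ± 106 against 1.66 ± 0.116). The other 4, HLA-B, TAP1, TAPBP and NLRC5, were at 0.46 to 1.77 times, and the interferon-inducible PSMB8 and IRF1 at 0.85 and 0.90 times. These tables were counted and scaled separately, so no test was made.

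Over all 24 libraries, the genes whose deviations from their group means ran most like the average of the 9 were SSH3 (Pearson's r 0.953), PPL (0.944), MELTF (0.941), AHNAK2 (0.897) and RXRA (0.892), among 9899 genes tested in all comparisons. These values are a description: 58.9% of the squared deviations came from the sgRNA table, 30.7% from sgCtrl replicate 3 alone, and 39.4% from the vector table, and the points of a library share its depth. Within the 9, HLA-B (0.887), TAPBP (0.873), HLA-E (0.839) and TAP1 (0.806) followed the mean of the other 8 most closely, and B2M ran apart from them (-0.26).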

How the data were processed

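RNA from sorted or transduced cells was sequenced as stranded, paired-end poly-A libraries. Per the labels, reads were aligned to GRCh38, and the submitters' processing notes name HISAT2 2.0.5 and featureCounts 1.5.0-p3; the gene annotation is not given in the sources used here. The authors deposited TPM for the sorted lines and CPM for the vector experiment. For the sgRNA experiment the deposited values, named CPM by the authors, are a signal of reads divided by 1 factor per library, summing to 977394 to 1028620. Whole reads were recovered for 100% of values (within 0.003 reads for TPM and 0.05 for the others); for TPM a gene's reads may be low by a common divisor. Depth in recovered reads limits precision for low genes such as B2M in the vector experiment.

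Each comparison of 3 against 3 libraries was fitted in limma 3.58.1 (R 4.3.3) with a trend on log2(value + 1), over genes with a mean of at least 1, two-sided, with Benjamini-Hochberg adjustment over all genes tested; fold changes on this scale understate those of low genes. Values after ± are SDs (n = 3) for levels and SEs for log2 fold changes. The interaction of fraction and line was fitted over 12 libraries. edgeR 4.0.16 (quasi-likelihood) and DESeq2 1.42.0 on the recovered reads, other scalings, minimums and a pseudocount of 0.1, a replicate block and leaving out each library were the alternatives. The fit was tested on data simulated with 1 noise setting for all comparisons. Replicate libraries differed by more than counting noise, with a chi-squared per gene of 2.02 to 131 over pairs of replicates. The simulation therefore does not show how the fit does at the noise of each experiment. Python 3.11.15 with numpy 2.4.6, pandas 2.3.3 and matplotlib 3.10.9 was used for the rest.

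The members and gene lists were chosen with earlier results of these data known. All 9 genes are given in each comparison. Of each other list, up to 3 called genes with the largest log2 fold change and a mean of at least 10 in a group are named, and IRF1, RFX5, PSMB8, PSMB9, CIITA, CALR, CANX, PDIA3, ERAP1, ERAP2 and KIF20A in any case; some genes under this rule are not reported here. POMP, RFXANK, SAR1B, IFNGR1, USP18, CD276, the ULBP genes, MR1 and CD44 fall outside this rule in places and were added after their values were seen. Older symbols were updated for 335 to 1471 genes a table.

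Replicate numbers were not taken to pair libraries, as same-numbered libraries did not deviate together in every pair.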

Additional observations from a re-analysis of the deposited data

Results flagged for a closer look

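For 3 of the 9 genes, the BCSC minus non-BCSC difference itself differed between HCC70 and Hs578T in the limma interaction test over 12 libraries. For HLA-E the difference was 0.27 in HCC70 and -0.06 in Hs578T on the log2 scale, which are 0.32 apart (SE 0.062, adjusted p 0.0131). For HLA-B it was 0.21 and -0.10, also 0.32 apart (SE 0.083, adjusted p 0.0426). For NLRC5 it was 0.25 and -0.10, 0.35 apart (SE 0.094, adjusted p 0.0456). In all 3 genes each HCC70 BCSC library lay above every HCC70 non-BCSC library, and in Hs578T the BCSC libraries of HLA-B and HLA-E lay below every non-BCSC library while those of NLRC5 overlapped. Over 18 alternatives, HLA-E lost its call in 1, the replicate block, HLA-B in 13 and NLRC5 in 14. Cell line and batch cannot be told apart in this comparison.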

How the results depend on the processing

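Of 654 values of the 9 genes under the alternatives, 603 kept their side of the threshold, 38 lost a call, 13 gained one and 0 called values changed sign. Among the 9, the count called in HCC70 went from 1 to 0 with no minimum, the median of ratios, quantile normalization or a replicate block, to 2 with DESeq2, and to 0 whichever library was left out (0 to 0). In the sgRNA experiment it was 0 to 1 with single libraries left out. The interaction count went from 3 to 2 with no minimum, 1 with the median of ratios or quantile normalization, 0 with the replicate block and 1 to 3 with single libraries left out. In the vector experiment it was 5 to 8 in all. The cause of these changes was not tested.

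The replicate block rests on numbers that did not pair the libraries (same-number correlations -0.161 to 0.185; 0, 2, 0 and 6 of 6 libraries correlated best with their own number). It called 669 genes in Hs578T against 953, 128 in HCC70 against 374, 10545 against 10634 in the vector experiment and 302 against 830 for the interaction. edgeR and DESeq2 called 1646 and 1418 genes in Hs578T and 715 and 1178 in HCC70, and leaving out single libraries gave 343 to 865 and 32 to 270. Without a minimum HCC70 had 178 calls and with the median of ratios 232. The split of higher against lower calls moved from 386 and 567 to 620 and 573 in Hs578T and from 656 and 174 to 403 and 333 for the interaction with the median of ratios, and in HCC70 from 301 and 73 to 441 and 274 with edgeR. The counts of the lists around the 9 genes under these alternatives were added after seeing the data. B2M in the vector experiment, at 7 to 36 reads or 0.438 to 1.74 CPM a library, was below the alternative minimum mean of 10 CPM. It also fell below the main minimum of 1 without EV replicate 2 or 3, so only 11 alternatives tested it.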
